A study of Mus musculus with 6 samples.

Results

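miR-126, miR-221 and miR-222 are miRNAs known from the vascular endothelium, and they were followed here in the small RNA of embryonic mouse cardiomyocytes (EMCMs). They were taken by name, with every listed strand of miR-126, miR-221 and miR-222. This gave 6 strands of 3 hairpins among 689 miRNA names in all, which fall into 451 hairpin names. The cells were isolated from hearts of wild-type Swiss Webster embryos at E16.5 and grown on flexible, collagen I-coated plates. A group of 3 samples was stretched cyclically by 16% at 1 Hz for 24 hours, and a group of 3 static samples was kept for 24 hours without stretch. The labels give the genetic background as above, while the methods name another outbred stock, CD1, and a larger number of samples per group.

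The levels used here come from a log value that the authors deposited for each name, without naming a sample or group. It is read here as the mean log2 proportion of miRNA reads over all samples, stretched and static together. Apart from this mean, the values analysed hold no measurement of single samples or of single groups. The comparison of stretch with static conditions was therefore not made, and no error or n stands beside a level. Differences between miRNAs are given as sizes, and whether they exceed the spread between samples could not be tested. These differences are between shares of reads, and how closely they follow the numbers of RNA molecules was not tested. How the authors averaged the groups is not given in the sources used here. Each level was converted into RPM, reads per 1000000 miRNA reads, and the converted values of all names sum to 0.995 of the whole. The depth of the samples is unknown.

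miRNAs are cut from a hairpin precursor, whose 5′ arm (5p) and 3′ arm (3p) can each give a mature strand. The mature strand guides the silencing complex to mRNAs that pair with its seed, bases 2 to 8, and lowers their translation or stability. miR-126 lies within the gene of the endothelial secreted factor Egfl7 and is known for its role in vessel integrity and VEGF signaling, where its 3p strand acts on Spred1 and Pik3r2. Its 5p strand is known to act on the Notch ligand homolog Dlk1 in endothelial cells. miR-221 and miR-222 are made from neighboring hairpins, share their seed and are known regulators of the stem cell factor receptor Kit and of the cell cycle inhibitor Cdkn1b. They occur in endothelium and also in vascular smooth muscle and other proliferating cells. In the older names used by the table, an asterisk marks the strand of a hairpin that was held to be the minor one, which is the 5p strand for miR-221* and miR-222*.

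The mature strands are shown because the seed groups these miRNAs. RefSeq gave 4 of the 6, and miR-126-5p and miR-222* were not among them. The seed is in capitals, 5′ to 3′.
miR-126-3p: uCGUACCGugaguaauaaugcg
miR-221: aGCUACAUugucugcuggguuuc
miR-222: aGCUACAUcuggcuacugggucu
miR-221*: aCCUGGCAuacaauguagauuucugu

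miR-221 and miR-222 both have 23 bases and are identical over the first 8, which cover the seed. Position by position, 11 of the 23 bases are the same, and the longest run they share is 8 bases. Among 1679 mature names in the RefSeq table, 3 carry the seed of miR-221 and miR-222, the third being miR-1928, which has no entry among the 689 names. The seeds of miR-126-3p and miR-221* were each found in 1 mature name, their own. The longest run that any of these 4 strands shares with another mature sequence is 10 bases, shorter than the shortest tags kept, 18 nt.

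The hairpins show where these strands lie, with the mature strands listed above in capitals, 5′ to 3′ (RefSeq, GRCm38.p6).
Mir126a: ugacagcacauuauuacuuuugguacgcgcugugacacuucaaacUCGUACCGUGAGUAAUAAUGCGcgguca
Mir221: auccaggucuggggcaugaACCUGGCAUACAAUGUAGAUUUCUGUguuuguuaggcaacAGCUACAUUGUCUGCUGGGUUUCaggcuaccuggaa
Mir222: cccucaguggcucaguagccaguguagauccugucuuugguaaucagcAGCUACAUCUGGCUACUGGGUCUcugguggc

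Mir126a has 73 bases and lies on the plus strand of chromosome 2 from 26591357 to 26591429. Of the 9 Egfl7 transcripts in GENCODE that span it, 8 carry it in an intron, and 1, annotated as a retained intron, carries it in an exon. Another hairpin, Mir126b, is annotated within it on the minus strand, from 26591363 to 26591420, and no name of the table refers to it. Mir221 and Mir222 lie on the minus strand of chromosome X, from 19146294 to 19146388 and from 19146893 to 19146971, with 504 bases between them. Neither overlaps an annotated gene other than the miRNAs themselves, and the nearest one, the noncoding Gm14636, lies 10010 bases from Mir222. The build of the authors' mapping is not given in the sources used here, so these positions are those of the reference.

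miR-126-5p was the most abundant of the 6 strands, at 4642 RPM or 0.464% of the miRNA reads, and ranked 24 among the 689 names. miR-221 followed at 677 RPM, rank 71. Its opposite strand miR-221* was at 248 RPM, rank 111. The level of miR-126-3p, the strand best known from endothelial work, was 129 RPM, rank 139. Both strands of the remaining hairpin were lower, with miR-222 at 21.0 RPM, rank 245, and miR-222* at 5.21 RPM, rank 331. All 6 strands were thus above the median of all names, 4.20 RPM, and they spanned an 890-fold range. For scale, the most abundant name, miR-22, held 20.5% of the miRNA reads.

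**Figure D1:**
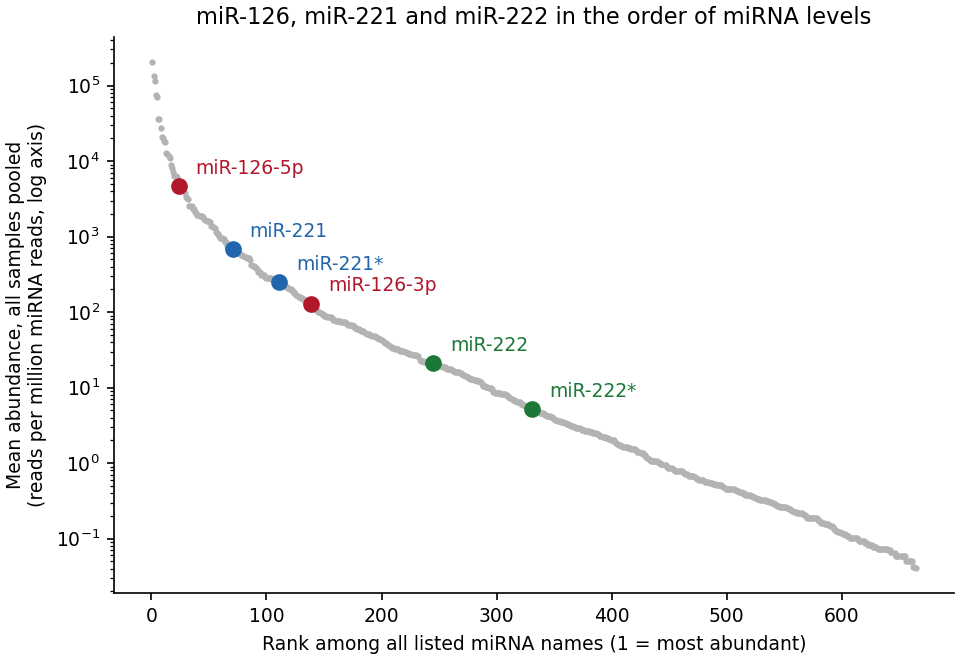
Mean abundance of each miRNA name (RPM, all samples pooled, log axis) against its rank. The colored points are the 6 strands, from miR-126-5p at rank 24 to miR-222* at rank 331, and the gray points are the other names, without 25 names that lie far below the rest.

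The order of levels around each strand was dense. miR-126-5p was followed by let-7a at 4630 and miR-410 at 4617 RPM, and preceded by miR-298 at 5152 and miR-151-3p at 6066. miR-221 stood between miR-181c at 683 and miR-183 at 664 RPM, with miR-145 at 694 and miR-10a at 661 next to these. miR-221* had miR-744 and miR-15b above it, at 258 and 250 RPM, and miR-431 and miR-421 below it, at 244 and 243. These neighbors differed from the strand they surround by at most 0.39 on the log2 scale, and for miR-221 and miR-221* by at most 0.06. Without values per sample, the order within such a group cannot be resolved.

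The lower strands had equally close neighbors. miR-126-3p lay just below miR-19b and miR-107, at 131 and 129 RPM, and above miR-378b and miR-208a-5p, at 120 and 119. miR-222 stood between miR-136 and miR-431*, both at 21.1 or 21.0 RPM, and miR-1249 and miR-185, at 20.8 and 20.6. miR-222* had miR-141 and miR-540-3p above it and miR-497 and miR-7a below it, all between 5.11 and 5.26 RPM. miR-208a-5p and miR-126-3p were thus at similar levels in these cultures, and each is the lower strand of its hairpin. The other strand of this heart muscle miRNA, miR-208a-3p, was at 747 RPM, rank 67.

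When the strands of a hairpin were added up, miR-126 reached 4771 RPM or 0.477% of the miRNA reads, rank 24 among 451 hairpin names. The miR-221 hairpin reached 925 RPM, rank 60, and the miR-222 hairpin 26.2 RPM, rank 189. All 6 strands made up 0.572% of the miRNA reads, and miR-126 held 83.4% of that sum. The miR-126 hairpin was 5.16-fold above the miR-221 hairpin.

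The strands of miR-126 differed by 5.17 on the log2 scale, with 5p 35.9-fold above 3p. The 5p strand held 97.3% of the reads of the hairpin. Both names state their arm, and of the 70 hairpins with a 5p and a 3p name, 29 had more 5p than 3p. The median difference of these 70 hairpins, 5p minus 3p, was -1.01 on the log2 scale. miR-126 was higher than 61 and lower than 8 of the others, between miR-532 at 4.98 and miR-142 at 5.41. The level of miR-126-5p was the second highest among the 5p strands of these hairpins, after miR-125a-5p at 12268 RPM. This order leaves out miR-125b-5p, at 12704 RPM, whose 3p strands are listed under names of single copies. It also leaves out 5p strands whose names do not state the arm. Where both strands had at least 1 RPM, 37 of the 70 hairpins remained and 32 of them had a lower difference than miR-126. The place of miR-126 was less high once the hairpins with an asterisked name were ranked in as well and arms were ignored. In that order, 59.5% of the other hairpins had a smaller strand difference.

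**Figure D2:**
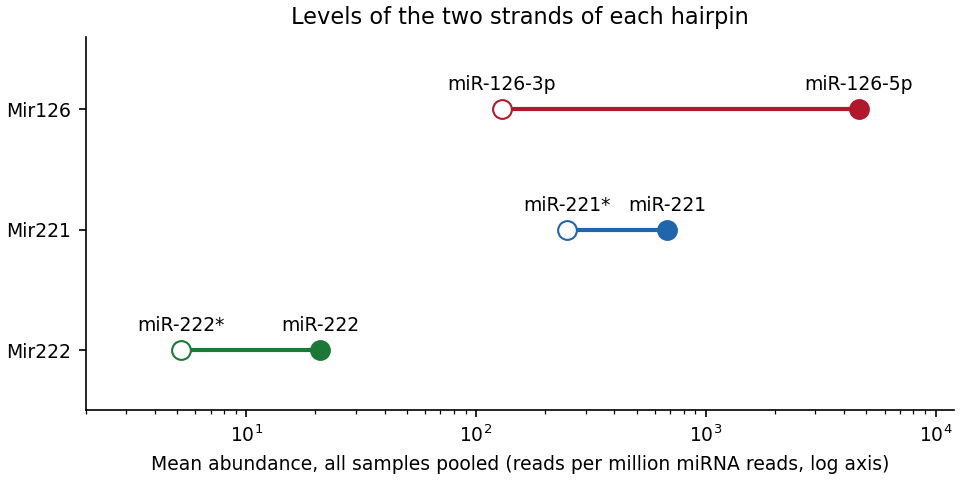
Mean abundance of both strands of each hairpin (RPM, all samples pooled, log axis), with filled points for the 5p strand of miR-126 and the unmarked strands of miR-221 and miR-222, open points for miR-126-3p and the asterisked strands, and lines joining the strands of a hairpin. The line of miR-126 spans 35.9-fold, that of miR-221 2.73-fold and that of miR-222 4.03-fold.

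In the miR-221 hairpin, the strand without an asterisk, or unmarked strand, was 2.73-fold above miR-221*, a difference of 1.45 on the log2 scale, and held 73.2% of the reads of the hairpin. In the miR-222 hairpin, the unmarked strand was 4.03-fold above miR-222*, a difference of 2.01, and held 80.1%. Of 168 hairpins named in this way, 153 had more of the unmarked strand, and their median difference was 4.77 on the log2 scale or 27.3-fold. Both hairpins therefore lay on the low side, and the difference, unmarked minus asterisk, was lower than theirs in 29 hairpins for miR-221 and in 38 for miR-222. Next to miR-221 in this order were miR-32 at 1.26 and miR-376a at 1.56, and next to miR-222 were miR-322 at 2.01 and miR-181c at 2.10. miR-221* thus had more reads than miR-126-3p, by 1.92-fold, and more than miR-222.

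**Figure D3:**
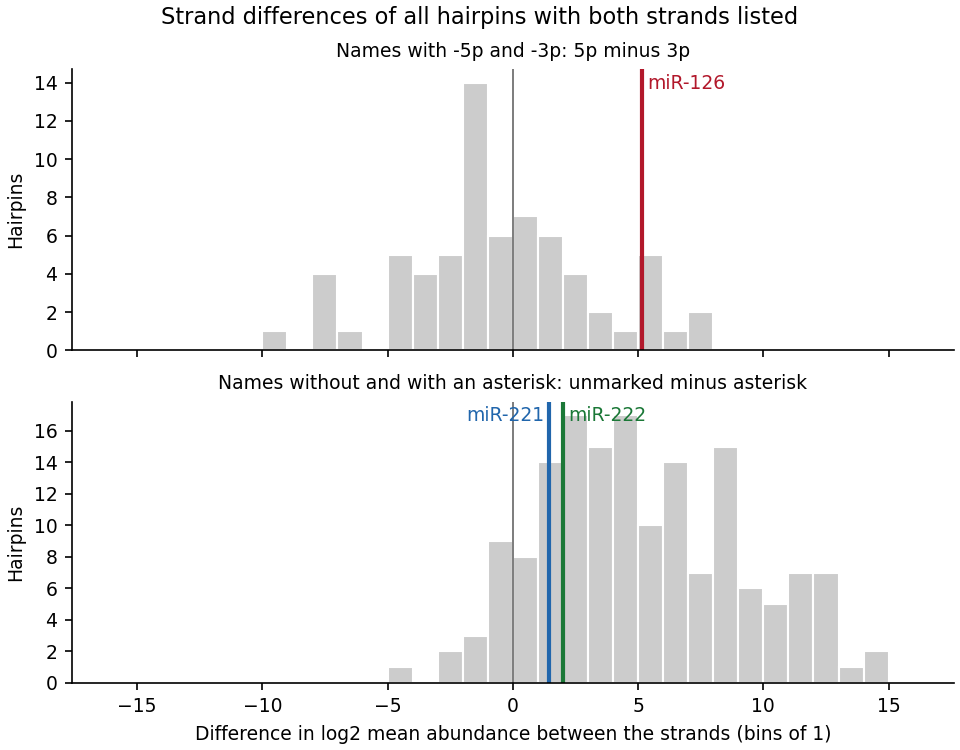
Number of hairpins by the difference in log2 mean abundance between their strands, in bins of 1, for names with -5p and -3p (top) and for names without and with an asterisk (bottom), leaving out hairpins with a strand among the 25 lowest names. The colored lines mark miR-126 at 5.17, on the 5p side of its panel, and miR-221 at 1.45 and miR-222 at 2.01, below the median of theirs.

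miR-221 and miR-222 differed from each other more than their strands did. The unmarked strands, which share the seed, differed by 5.01 on the log2 scale, with miR-221 32.2-fold above miR-222. The asterisked strands differed in the same direction, by 5.57 or 47.6-fold. Together these unmarked strands made up 698 RPM, of which miR-221 held 97.0%. Summed over strands, the hairpins differed 35.3-fold, although only 504 bases separate them on chromosome X.

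To place this difference, hairpins whose name matched 1 RefSeq hairpin, 259 of 451, were paired with the next one on the same strand within 1 kb. This comparison was chosen after the levels were seen. The median difference of the 39 pairs was 2.03 on the log2 scale or 4.09-fold, and miR-221 and miR-222, at 5.14, differed more than 29 pairs and less than 9. The pairs on either side of it were miR-501 and miR-362, at 4.76, and miR-503 and miR-322, at 5.61. The pairs are not independent, since a hairpin with a neighbor on each side counts in both pairs. For example, miR-412 was paired with miR-409 and with miR-369, and miR-369 also with miR-410. Clusters of many hairpins thus weigh more in the median and in these counts.

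**Figure D4:**
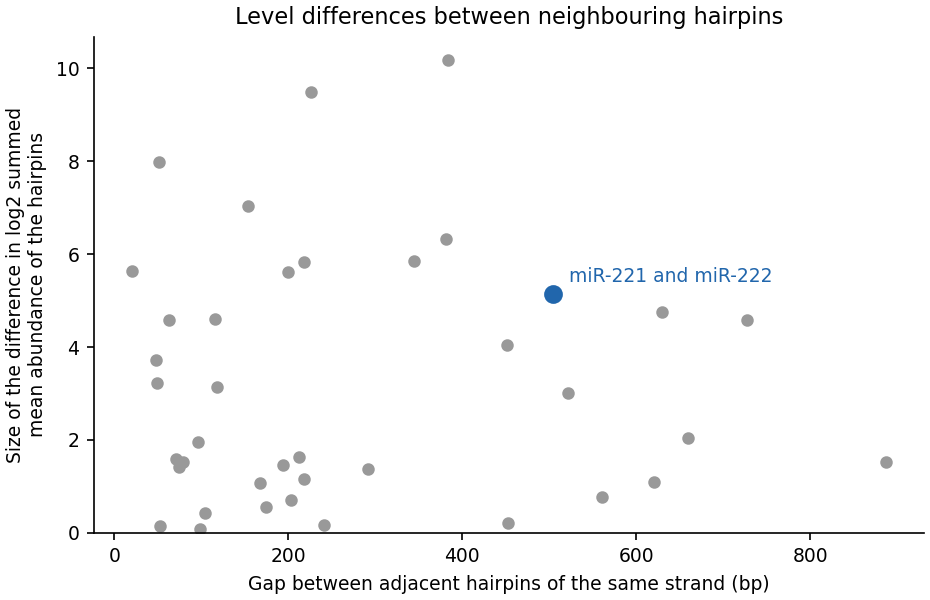
Size of the difference in log2 summed mean abundance between adjacent hairpins of the same strand, against the gap between them in bp. Each point is 1 of 39 pairs within 1 kb, and the blue point, miR-221 and miR-222 at 504 bp and 5.14, lies above 29 of the other pairs.

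The samples are labelled as cardiomyocytes, and miR-126 was set beside miRNAs known from the cell types of the heart. The cardiomyocyte miRNAs (miR-1, miR-133a, miR-133b, miR-208a, miR-208b and miR-499) were all listed, and their 14 strands summed to 1.51% of the miRNA reads, 3.16-fold above miR-126. This order rests on the sum and turned around for the median strand. That of miR-126, the midpoint of its 2 strands, was at 2386 RPM, and that of the list was at 7.35 RPM. miR-208b, from an intron of the myosin gene Myh7, led them at 1.17%, and miR-1a, the muscle miRNA that is usually most abundant in adult heart, was at 395 RPM. miR-126-5p was above every cardiomyocyte strand except miR-208b. The lowest of the list, miR-1a-2*, was among the 25 names far below the rest.

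The smooth muscle miRNAs miR-143 and miR-145 summed to 13.4%, 28.1-fold above miR-126, with 13.3% from miR-143 alone. Their lowest strand was miR-143* at 8.20 RPM. The miR-145 hairpin, at 737 RPM, was below the miR-126 hairpin at 4771 RPM, so the order rests on miR-143. The median strand of the list, at 368 RPM, was below the midpoint of the miR-126 strands, 2386 RPM. The strands of the fibroblast miRNAs miR-199a, miR-199b and miR-214 summed to 0.622%, 1.30-fold above miR-126, led by miR-199a-5p at 2524 and ending with miR-199b* at 105 RPM. The median strand of this list, at 932 RPM, was also below the midpoint of the miR-126 strands. Since miR-199a-3p and miR-199b are listed at the same value, that sum may count the same reads under both names, and with this value counted once it was 0.464%, 0.972 times miR-126. miR-126 and the fibroblast list were therefore level to within this choice.

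Blood cell miRNAs were far lower. The leukocyte miRNAs miR-142, miR-223 and miR-150 summed to 84.1 RPM, 56.7-fold below miR-126, from miR-142-5p at 74.9 down to miR-223* at 0.189. The red blood cell miRNAs miR-451 and miR-144 summed to 1.79 RPM, from 0.869 for miR-451 to 0.450 for miR-144, and miR-126 was 2662-fold above them. The endothelial list held miR-126 alone, so the label of these miRNAs as endothelial could not be checked against other endothelial markers. In RNA of whole cultures, fewer cells of a type and less RNA per cell cannot be told apart. Neither can the cells that the miR-126, miR-221 and miR-222 reads came from. Whether the miRNAs of the other lists came only from the cell type of their list was not tested, so the sums are not measures of cell content.

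**Figure D5:**
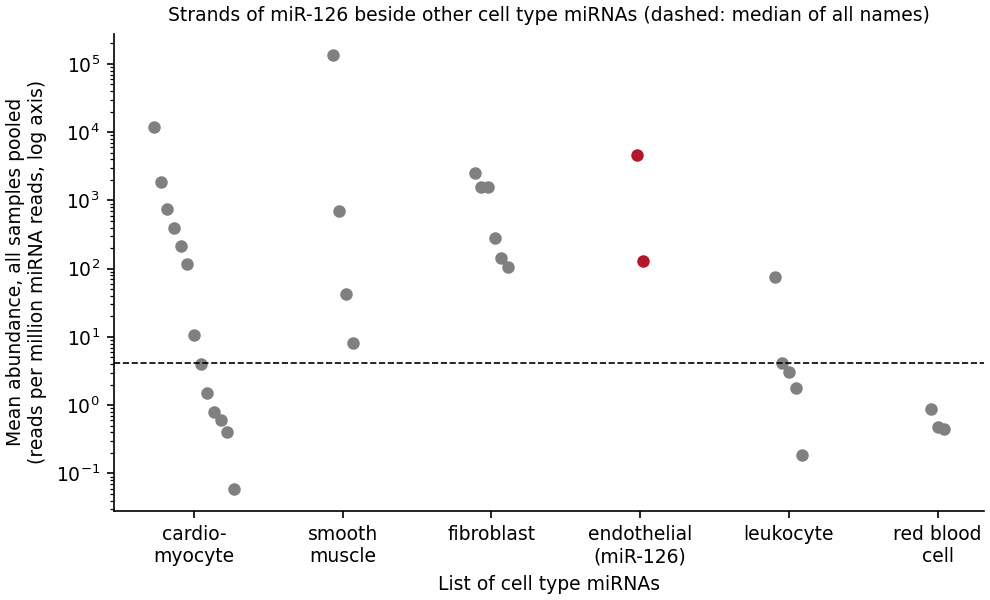
Mean abundance of each listed strand (points; RPM, all samples pooled, log axis) of the miRNAs known from 6 cell types, without miR-1a-2*, which lies far below. The strands of miR-126 (red), at 4642 and 129 RPM, lie within the range of the cardiomyocyte and of the smooth muscle strands and above every leukocyte and red blood cell strand, and the dashed line is the median of all names, 4.20.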

How the data were processed

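Total RNA of 3 static and 3 stretched EMCM samples, with an RNA integrity number above the authors' limit, was made into small RNA libraries (TruSeq) and sequenced on a HiSeq2500. The authors trimmed the reads, kept tags of 18 to 30 nt, mapped them to the mouse genome with Bowtie2, counted hits with in-house scripts and used edgeR according to the methods, while the processing notes in the labels name a different package. Genome build, miRNA release, tool versions and normalization are not given in the sources used here. The deposited table holds 5 columns of values. The abundance deposited by the authors on a log scale, with no unit or sample named, was used and read as a mean over both groups. It was read as a log2 proportion of miRNA reads because its antilogs to base 2 add up to 0.995, and every RPM value rests on this reading. The other 4 columns hold the authors' comparison of the groups (log2 fold change, signed fold change, P value and FDR) and were not used. The test planned for counts per sample could not be run.

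From the log2 values, RPM, ranks, strand differences and sums over fixed lists were computed with Python 3.11.15, numpy 2.4.6 and pandas 2.3.3, and figures were drawn with matplotlib 3.10.9. Ranks, strand differences, places among values and the sum of the shares were tested on simulated data. The sums over lists, the pairs of neighboring hairpins and the seed search were not. No filter was applied to the names, but hairpins below -30 on the log2 scale were left out of the pairs of neighboring hairpins. The 25 names below -30 on the log2 scale lie apart from the others, which end at -24.5. They may be names without reads in one of the groups, which was not tested. They kept their ranks and stayed in the counts and medians of strand differences. Of the hairpins with a 5p and a 3p name, 2 of 70 hold such a name, as do 8 of 168 named with an asterisk. miR-1a-2* also counts in the median strand of the cardiomyocyte list. Their single values were not interpreted as levels. Intervals and limits of detection need the depth of the samples, which is unknown. Sequences came from RefSeq and gene models from GENCODE M21, both on GRCm38. The miRNAs and the 6 lists were chosen with earlier results of these data known. The names given are the 6 strands, their nearest neighbors in each order and the most abundant name. Names with a shared seed and the highest and lowest strand of each list are also given. miR-1a, miR-125a-5p, miR-125b-5p, miR-208a-3p and the neighboring hairpins were named after their values were seen. Alternatives were other denominators, identical values counted once, a minimum of 1 RPM, summed strands, arms ignored, main strands only and the median strand of a list.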

Additional observations from a re-analysis of the deposited data

How the results depend on the processing

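Without replicates or depth, a level, rank or ratio was taken as moved at a change over 1.5-fold, and a place among hairpins at one over 10 percentage points. Of 54 values under an alternative, 44 stayed within these limits. Among them were all 18 levels under another denominator, which scales every level alike and by less than the limit. The ranks among names above 1 RPM could not change either, since all 6 strands are above that minimum. These outcomes were fixed in advance and say nothing about stability. With strands summed per hairpin, the ranks of the minor strands became those of their hairpins, 24 for miR-126-3p, 60 for miR-221* and 189 for miR-222*. With arms ignored, hairpins of both kinds of name were ranked together, and 59.5% of the others had a smaller strand difference than miR-126. Among the 70 hairpins with a 5p and a 3p name, 88.4% of the others had a lower 5p minus 3p difference. These percentages rest on different sets of hairpins, so their gap is not due to the arms alone. With the median strand of a list in place of its sum, the log2 difference from miR-126 was -8.34 for the cardiomyocyte, -2.70 for the smooth muscle and -1.36 for the fibroblast list, in place of 1.66, 4.81 and 0.38, -9.60 for the leukocyte list and -12.3 for the red blood cell list; a median weighs rare strands like abundant ones. With identical values counted once, chosen after seeing the data, the fibroblast list was at -0.042. With hairpins within 10 kb, 71.6% of the 67 other pairs differed less than miR-221 and miR-222, against 76.3% of 38 within 1 kb.

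The strand differences had no alternative, since they do not depend on a denominator and no member shares its value with another name. In ranking strand differences, 5p and 3p were used only where the deposited name states them. No paired analysis was possible because stretched and static samples are merged into 1 value per name. The alternatives planned for counts per sample (another normalization, no count filter, the replicate letter as a block, 1 sample left out at a time) were not run, as no such counts were analysed here. The depth is unknown, so no limit of detection is given.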
